A study of Mus musculus with 5 samples.

Results

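The genes described here are 10 mouse snoRNA host genes, Gas5, Snhg1, Snhg3, Snhg5, Snhg6, Snhg8, Snhg11, Snhg12, Zfas1 and Epb41l4aos. They were taken by name, as spliced hosts of small nucleolar RNAs whose exons are held to make little or no protein. They were looked up through GENCODE M21, out of 27255 genes with a value above 0. All 10 were found, and 9 passed the read filter. The cells were N2a, a neuroblastoma line of the mouse. A control siRNA was delivered with lipid for 2 libraries, called siCtrl, and an siRNA that targets Ewsr1 for 3 libraries, called siEwsr1. In both groups 50000 cells were transfected in a double pulse and collected 24 hours after the second, with a final siRNA concentration given as 100 µM, which may be a slip of the unit. The input of each library was 2 µg of total RNA, and the kit kept strand and depleted ribosomal RNA. All libraries come from the 1 cell line and the labels describe no second siRNA against Ewsr1. Nothing in them ties the libraries of a group to separate cultures, so the p-values here reflect library-to-library spread that may be technical.

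A snoRNA is a short nuclear RNA that guides the chemical modification of ribosomal RNA or takes part in its cutting. Box C/D snoRNAs guide ribose methylation and box H/ACA snoRNAs guide pseudouridylation. Most mammalian snoRNAs lie in introns: the host transcript is spliced, the excised intron is trimmed to the snoRNA, and the joined exons leave the nucleus. In ribosomal protein genes those exons encode protein. In noncoding hosts such as most genes described here, the exons are held to contain only short reading frames. Snhg11 is annotated as protein-coding in GENCODE M21, and reading frames were not examined here. For Gas5 and several Snhg RNAs, translation of such short frames is known to lead to nonsense-mediated decay. That pathway destroys messages with a premature stop. Many hosts also belong to the TOP class, transcripts that begin with a C followed by a run of C and T, as ribosomal protein messages do, and whose translation follows growth signals. EWSR1, the protein of the targeted gene, binds RNA and takes part in transcription and splicing.

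The bases around the start of transcription are shown because the TOP class is defined there. Start positions of 8 of the 10 genes were matched in RefSeq (GRCm38.p6). Each line gives 10 bases before the annotated start and 20 bases from the start on, 5′ to 3′, with the longest unbroken run of C or T in capitals. Gas5 has a pair of annotated starts.
Gas5, chr1:161034591-161034620, plus strand: gcgggCCCgcgagctcgacagcccggagcc
Gas5, chr1:161035156-161035185, plus strand: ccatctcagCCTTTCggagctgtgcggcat
Snhg1, chr19:8723477-8723506, plus strand: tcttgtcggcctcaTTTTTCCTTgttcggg
Snhg3, chr4:132353667-132353696, minus strand: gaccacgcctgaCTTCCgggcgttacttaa
Snhg5, chr9:88522878-88522907, minus strand: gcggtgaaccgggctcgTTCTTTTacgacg
Snhg8, chr3:123508317-123508346, minus strand: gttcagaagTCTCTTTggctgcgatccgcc
Snhg11, chr2:158375703-158375732, plus strand: tgcggcaCTCactcacgcactcagcctgct
Snhg12, chr4:132308668-132308697, plus strand: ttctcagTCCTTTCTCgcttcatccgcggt
Zfas1, chr2:167062924-167062953, plus strand: tgcgCCCCgggcggccgcaggtctcggctg

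Runs of at least 7 C or T stood in 4 of these 9 windows, those of Snhg1, Snhg5, Snhg8 and Snhg12. The same was true of 17.9% of 32851 RefSeq start windows and of 33 of 73 windows of cytosolic ribosomal protein genes (45.2%). Only the strand of the transcript was searched. Read strictly, a C at the annotated start followed by C or T began a run of 6 bases in Snhg8, of 5 bases at the second Gas5 start and of 3 bases in Snhg1. The other 6 windows did not begin so. That second Gas5 start lay within 50 bases of the starts of 14 of the 25 Gas5 transcripts in GENCODE M21, against 1 of 25 for the first. A run is a description of the letters and says nothing of use of the site.

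The genes differed in how much of their span is annotated as exon, which bears on every level below. GENCODE M21 merges transcripts that keep their introns into the exons of Snhg1 (chr19:8723475-8726443), Snhg8 (chr3:123507552-123508404), Snhg12 (chr4:132308623-132311024) and Zfas1 (chr2:167062934-167065862), so that 100% of each span counts as exon. The exonic share was 92.0% in Snhg5 (chr9:88521050-88522929) and 91.3% in Gas5 (chr1:161034422-161038539). It was 53.1% in Snhg6 (chr1:9941959-9944118), 39.3% in Epb41l4aos (chr18:33794892-33795986) and 17.4% in Snhg3 (chr4:132348014-132353686). Snhg11 (chr2:158375638-158386145), of which 81.1% is exon, is annotated there as protein-coding. A read from a kept intron therefore counts toward Gas5 or Snhg1 but not toward most of Snhg3, and an RPKM averages spliced exons with introns that may be rare.

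Counted reads ranged from 15045774 to 21339459 per library, both ends of that range being siEwsr1 libraries. Ewsr1 was measured at 71.9 and 70.8 RPKM, a read count divided by the exonic length and by the library's depth, in siCtrl and at 36.2, 36.8 and 37.3 RPKM in siEwsr1. It fell by 0.96 ± 0.08 (SE) on the log2 scale (limma, adjusted p = 0.00072), and all 3 siEwsr1 libraries were below both controls. Without siCtrl replicate 2 the difference was -0.97 with an adjusted p of 0.0526. In bulk RNA, less RNA per cell and fewer cells with the RNA cannot be told apart, here or for the genes below. All 11 N2a marker genes had reads. Reads of 7 markers of other cell types summed to 10.8 and 9.99 CPM (reads scaled to the library total) in siCtrl and 4.45 to 5.04 CPM in siEwsr1. Of these, Acta2 had 81 and 81 reads in siCtrl and 21, 35 and 27 in siEwsr1 (log2 difference -1.56, limma adjusted p = 0.00579). Pdgfrb had 28 and 26 reads against 7, 5 and 9, and Pecam1 had 55 and 59 against 35, 55 and 44. Gfap had at most 8 reads per library, and Col1a1, Ptprc and Aif1 had 1 or none. The part of these markers in the results below was not tested. Mitochondrial ribosomal RNA took 1.55% and 0.799% of counted reads in siCtrl and 1.66%, 2.42% and 1.67% in siEwsr1.

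No host gene passed the test in either direction. Of the 9 tested genes, 0 were higher and 0 were lower in siEwsr1 at an adjusted p under 0.05 by limma, where 2.46% and 2.65% of 14922 genes were called in those directions and 5.11% in either. At an unadjusted p under 0.05 there was 1 of 9 (Snhg3), against 22.2% of all genes. The estimates leaned upward by small amounts: 7 of 9 log2 differences were above 0, against 49.4% of all genes. Their median was 0.12, against -0.01 over all genes. The hosts were chosen with earlier results of these data known, so this lean, here and below, is a description only. The 95% intervals of the 9 genes together spanned -0.44 to 0.63, and a missed threshold does not show that a gene did not differ within its interval. In 4 genes, Snhg3, Snhg5, Snhg6 and Zfas1, all 3 siEwsr1 libraries lay above both controls, as in 19.9% of all genes. In 1 gene, Snhg8, all 3 lay below both, again as in 19.9% of all genes.

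**Figure D1:**
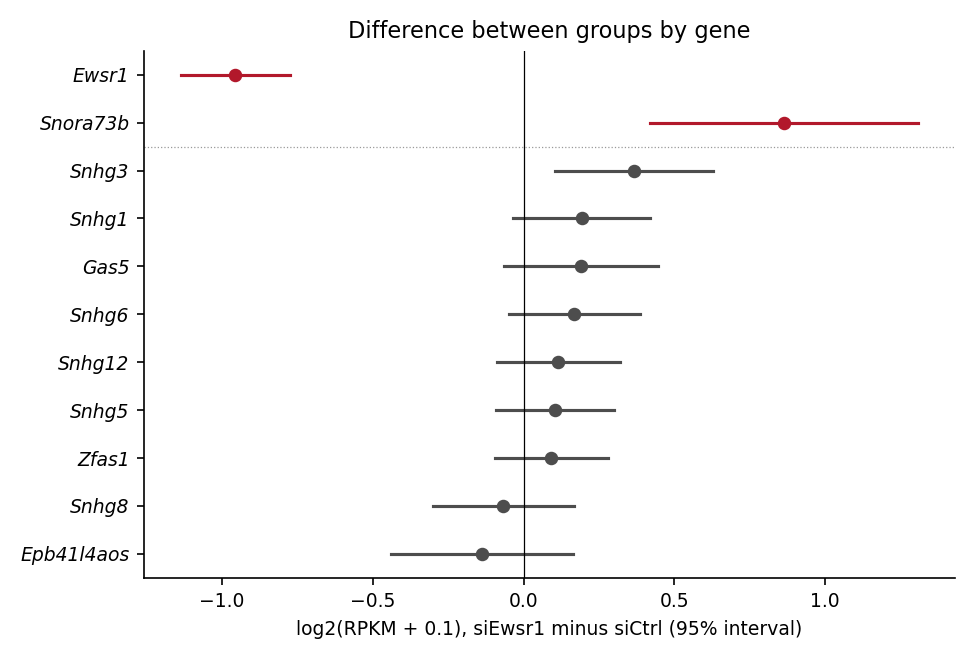
Difference between siEwsr1 and siCtrl in log2(RPKM + 0.1), with 95% intervals from limma, for the 9 tested host genes, below the dotted line, and for Snora73b and Ewsr1. Red marks an adjusted p under 0.05. Of the host genes, the interval of Snhg3 alone lies above 0 (0.10 to 0.63), and its adjusted p is 0.105.

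Snhg3 had the largest difference of the 9. This gene carries the pair of U17 H/ACA snoRNAs, which act in the cutting of the ribosomal RNA precursor rather than in its modification. Its level was 42.0 and 35.5 RPKM in siCtrl and 50.2, 54.2 and 45.1 RPKM in siEwsr1. Every siEwsr1 library was above both controls, although the controls themselves differed (-0.24 on the log2 scale, replicate 2 minus replicate 1). The mean difference was 0.37 ± 0.12 (SE) on the log2 scale, or 28.8% with a 95% interval of 7.39% to 54.5%. Its adjusted p was 0.105, and it stood at rank 1554 of the 14922 genes by p. It rests on 618 to 1124 reads per library.

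Gas5 was the most abundant of the hosts and has the most annotated passengers, 10 snoRNA gene entries, with Snord80 entered more than once. Its own RNA is known as a growth-arrest transcript that accumulates when translation stops. It stood at 182 and 162 RPKM in siCtrl and at 225, 194 and 173 RPKM in siEwsr1. Replicates 1 and 2 of siEwsr1 were above both controls and replicate 3 lay between them. The difference was 0.19 ± 0.12 (SE) on the log2 scale with an interval of -0.06 to 0.45 (adjusted p = 0.362).

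Snhg1, with 8 annotated snoRNA genes, followed the same order of libraries. Its level was 90.9 and 86.5 RPKM in siCtrl and 108, 108 and 89.4 RPKM in siEwsr1. Again replicate 3 of siEwsr1 lay between the controls while the other two were above them. The log2 difference was 0.19 ± 0.10 (SE) with an interval of -0.04 to 0.42 (adjusted p = 0.301).

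Snhg6, Snhg5 and Zfas1 carry few snoRNAs, of the box C/D class. The log2 difference of Snhg6 was close to those of Gas5 and Snhg1 (0.19 each). Snhg6, host of Snord87, was at 49.6 and 49.2 RPKM in siCtrl and 56.1, 59.5 and 51.3 RPKM in siEwsr1, a log2 difference of 0.17 ± 0.10 (SE) (adjusted p = 0.347). Snhg5, host of Snord50a and Snord50b, was at 70.9 and 68.9 RPKM against 77.5, 77.2 and 71.0 RPKM, a log2 difference of 0.10 ± 0.09 (SE) (adjusted p = 0.524). Zfas1, host of Snord12 and its relatives, was at 81.3 and 76.1 RPKM against 86.6, 82.7 and 82.4 RPKM, a log2 difference of 0.09 ± 0.08 (SE) (adjusted p = 0.562). In these genes the groups did not overlap, but the lowest siEwsr1 library exceeded the highest control by a narrow margin, as the values of Snhg5 show (71.0 against 70.9 RPKM). Their 95% intervals reached 0.39, 0.30 and 0.28 on the log2 scale.

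The remaining hosts include the carriers of H/ACA snoRNAs other than Snhg3. Snhg12, with Snora44, Snora61, Snora16a and Snord99, was at 49.5 and 48.1 RPKM in siCtrl and 55.2, 48.9 and 54.7 RPKM in siEwsr1, where replicate 2 lay between the controls (log2 difference 0.12 ± 0.09 SE, adjusted p = 0.498). Snhg8, host of Snora24, was at 35.1 and 35.9 RPKM against 34.2, 32.8 and 34.7 RPKM (log2 difference -0.07 ± 0.11 SE, adjusted p = 0.756). Epb41l4aos, which holds an unnamed snoRNA gene, Gm23639, was at 58.1 and 67.9 RPKM against 50.2, 57.5 and 64.3 RPKM (log2 difference -0.14 ± 0.14 SE, adjusted p = 0.598). The Epb41l4aos libraries overlapped widely in both groups, and its interval, -0.44 to 0.17, was the broadest of the 9. Snhg11, known as a brain-enriched host, had 2 and 2 reads in siCtrl and 0, 9 and 2 reads in siEwsr1, too few to test.

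**Figure D2:**
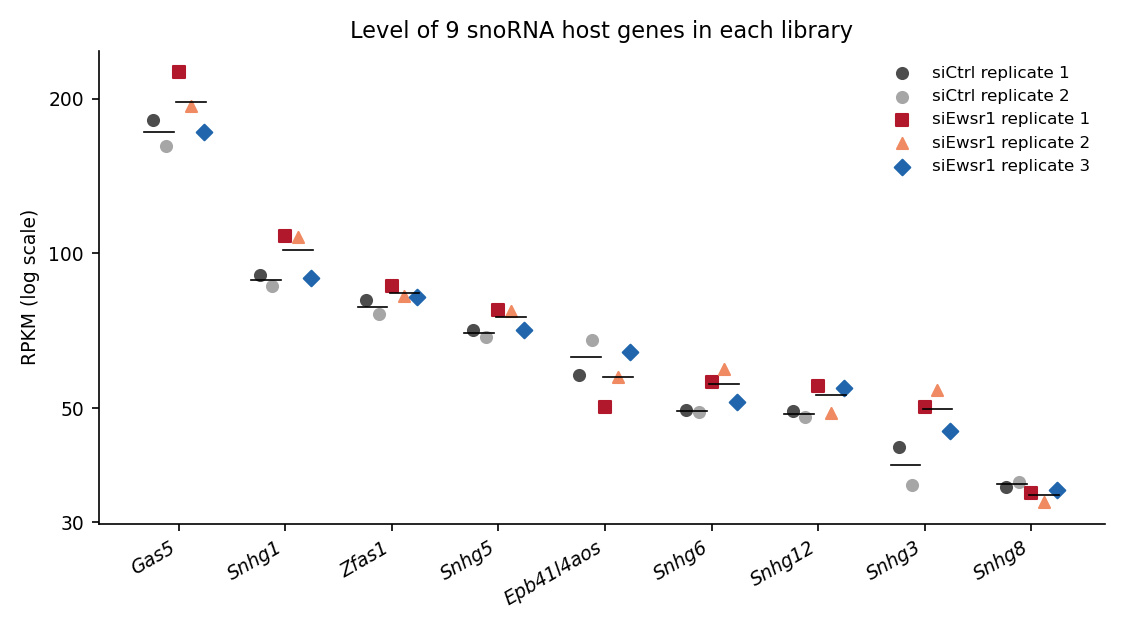
RPKM of the 9 tested host genes in each library, on a log scale, ordered by the siCtrl mean; each point is a library and each bar the mean of its group. Gas5 stands at 162 to 225 RPKM and Snhg8 at 32.8 to 35.9 RPKM.

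By level per length the order of the genes was the same in both groups. It ran from Gas5 (mean 172 RPKM in siCtrl, 197 in siEwsr1) through Snhg1 (88.7 and 102), Zfas1 (78.7 and 83.9), Snhg5 (69.9 and 75.2), Epb41l4aos (63.0 and 57.4), Snhg6 (49.4 and 55.6), Snhg12 (48.8 and 52.9) and Snhg3 (38.7 and 49.9) to Snhg8 (35.5 and 33.9). In siCtrl, Snhg6 could not be told from Snhg12, nor Snhg3 from Snhg8, since their libraries overlapped. In siEwsr1 the neighbours from Epb41l4aos to Snhg3 overlapped, while Snhg3 and Snhg8 were apart. The host genes together took 0.158% and 0.151% of counted reads in siCtrl and 0.183%, 0.169% and 0.159% in siEwsr1 (exact permutation test, two-sided, p = 0.2, where 2 against 3 libraries cannot go below 0.1). Summed RPKM was 660 and 630 in siCtrl and 743, 715 and 666 in siEwsr1, with the same exact p of 0.2. Gas5 made up a large part of that sum; without it the sums were 477 and 468 against 518, 521 and 493 RPKM.

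The siEwsr1 libraries did not lean equally, and they also differed over all genes: chi-square of the reads per gene, which grows with depth, was 26.6 between replicates 2 and 3, 12.1 between replicates 1 and 3 and 7.66 between replicates 1 and 2, against 8.2 between the controls. Against the siCtrl mean, the median log2 difference over the 9 genes was 0.18 in replicate 1, 0.14 in replicate 2 and 0.03 in replicate 3, whereas the controls differed by -0.04 (replicate 2 minus replicate 1). Leaving out siEwsr1 replicate 3, 4 of 9 host genes were called higher, against 13.0% of 14572 genes: Snhg3 at 0.43 (adjusted p = 0.00304), Snhg1 at 0.28 (0.00314), Gas5 at 0.28 (0.0118) and Snhg6 at 0.22 (0.0489), all limma on the log2 scale. Leaving out any other library called 0 of 9, where few genes of any kind were called higher: 0.0545% and 0.0208% on dropping control 1 or 2, and 0.238% and 1.88% on dropping replicate 1 or 2 of siEwsr1.

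**Figure D3:**
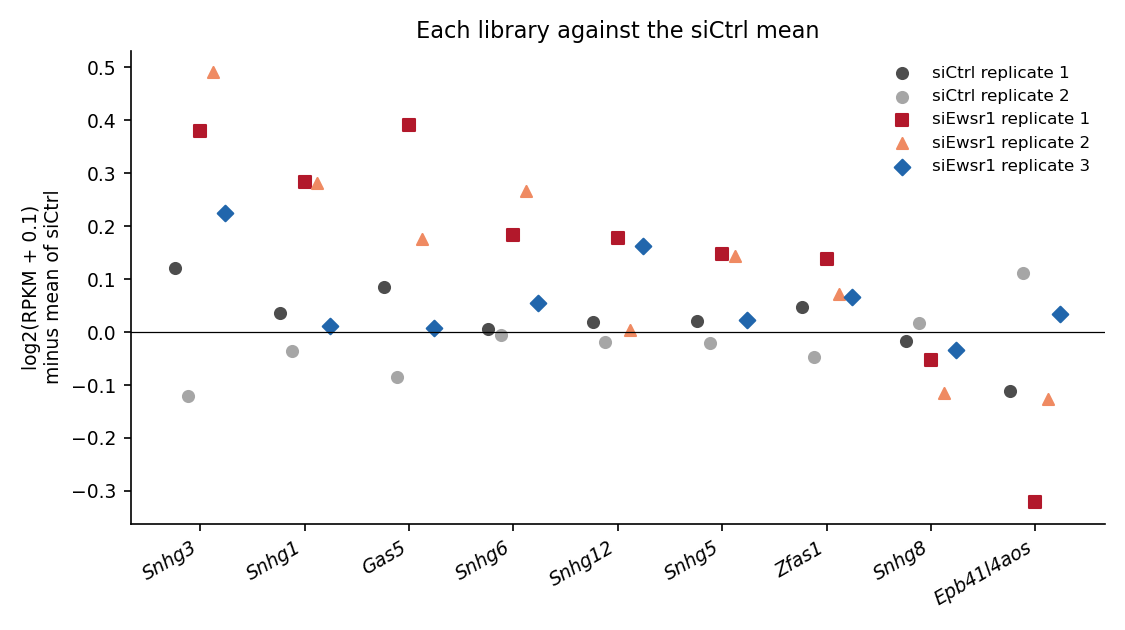
log2(RPKM + 0.1) of each library minus the mean of the siCtrl libraries for the 9 tested host genes, ordered by the difference between groups. Replicate 3 of siEwsr1 (blue) lies near 0 for Gas5 (0.01), Snhg1 (0.01) and Snhg5 (0.02), where replicates 1 and 2 lie at 0.14 to 0.39.

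The snoRNAs themselves could be read for few of these hosts. GENCODE M21 places 35 snoRNA gene entries within the 10 hosts, with Snord80 in Gas5 and Snora16a in Snhg12 each entered more than once. Of these entries, 30 lie wholly inside exons of their host and had 0 reads in all 5 libraries. Of the other 5, 1 lies partly inside a host exon and 4 outside, and 4 of these 5 had reads. The same held across the genome: 2 of 164 snoRNA and scaRNA genes wholly inside same-strand exons of other genes had a read (1.22%), against 301 of 1329 without such overlap (22.6%). The zeros of the 30 genes therefore say nothing of whether those snoRNAs were present, and whether their reads were counted to the host or dropped was not tested. Snord87 in Snhg6 had 3 to 11 reads per library and Gm25129 in Snhg11 had 0. Gm23639 in Epb41l4aos had 20 to 32 reads per library (log2 difference -0.23 ± 0.34 SE, adjusted p = 0.736).

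The pair of snoRNAs within Snhg3 did give values. Both are H/ACA RNAs of 205 bases on the minus strand of chromosome 4. The sequences are printed because limma called Snora73b higher and they are nearly the same. They differ at 7 bases, an identity of 96.6%, shown in capitals, and both end in the ACA box followed by 3 bases. The sequences are those of the GENCODE M21 transcripts on GRCm38.
Snora73b, chr4:132352322-132352526: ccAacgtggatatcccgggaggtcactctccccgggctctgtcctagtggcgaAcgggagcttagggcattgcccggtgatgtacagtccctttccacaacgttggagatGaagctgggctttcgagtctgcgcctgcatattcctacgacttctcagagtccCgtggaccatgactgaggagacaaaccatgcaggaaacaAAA
Snora73a, chr4:132352775-132352979: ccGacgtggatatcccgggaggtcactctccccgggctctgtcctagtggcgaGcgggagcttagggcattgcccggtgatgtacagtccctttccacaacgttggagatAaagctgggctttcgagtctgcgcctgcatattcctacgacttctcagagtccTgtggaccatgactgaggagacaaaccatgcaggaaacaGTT

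Snora73b was called higher in siEwsr1. It was at 471 and 517 RPKM in siCtrl and 738, 1274 and 766 RPKM in siEwsr1, from 1518 to 5488 reads per library. All 3 siEwsr1 libraries were above both controls, and replicate 2 stood well above the other two. The log2 difference was 0.86 ± 0.20 (SE), or 81.8% (limma, adjusted p = 0.0383). The call was lost under several settings: the adjusted p was 0.107 with a pseudocount of 1, 0.121 with the variance trend taken on mean RPKM and 0.237 without the read filter. It was also lost on leaving out siCtrl replicate 1 (adjusted p = 0.284), siCtrl replicate 2 (0.281), siEwsr1 replicate 1 (0.0786) or siEwsr1 replicate 3 (0.235), and kept without siEwsr1 replicate 2 (log2 difference 0.61, adjusted p = 0.00799). Mitochondrial ribosomal RNA was likewise highest in siEwsr1 replicate 2 (2.42% of counted reads); its part in the result was not tested.

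Snora73a, of which 159 of 205 bases lie inside an exon of Snhg3, had 56 to 129 reads per library and a log2 difference of 0.40 ± 0.27 (SE) (adjusted p = 0.414). Because the copies are 96.6% identical, and how reads that map to both were treated is not stated in the labels, the split of reads between them is uncertain. Rcc1, a protein-coding gene that starts 81 bases from Snhg3 on the same strand and shares 135 exonic bases with it, was at 31.2 ± 1.99 RPKM (SD, n = 2) in siCtrl and 32.8 ± 3.48 RPKM (SD, n = 3) in siEwsr1 (log2 difference 0.07, adjusted p = 0.755). Rcc1 encodes the exchange factor for the Ran GTPase. Gm17300, a long noncoding RNA gene on the opposite strand that overlaps 705 exonic bases of Snhg3, had only 11 to 41 reads per library (log2 difference 0.70, adjusted p = 0.264). Over 115 tested snoRNA and scaRNA genes the median log2 difference was 0.24, with medians of 0.17, 0.50 and 0.03 in siEwsr1 replicates 1, 2 and 3. Of these 115, 1 was called higher, Snora73b, and 2 lower, Snora2b (-1.17) and Snord13 (-0.89), against 2.46% and 2.65% of all tested genes. Snora2b and Snord13 were named after their values were seen.

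**Figure D4:**
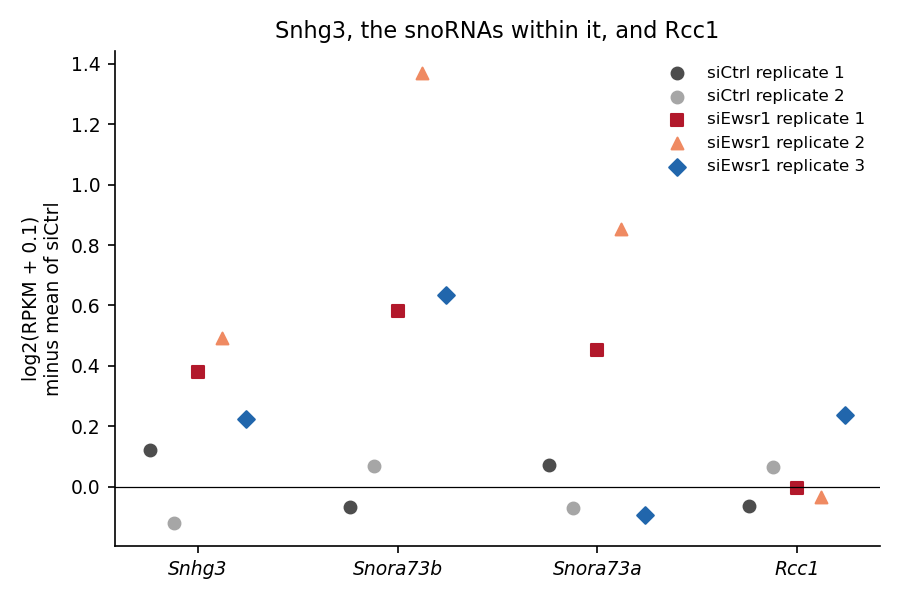
log2(RPKM + 0.1) of each library minus the siCtrl mean for Snhg3, for Snora73b in an intron, for Snora73a, which partly overlaps an exon, and for the neighbour Rcc1. The siEwsr1 libraries lie above the controls for Snhg3 and Snora73b and overlap them for Snora73a and Rcc1.

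Other neighbours of the host starts were as follows. Slc3a2, the heavy chain of amino acid transporters, starts 106 bases from Snhg1 on the opposite strand. Its level was 81.3 and 79.4 RPKM in siCtrl and 65.0, 60.3 and 70.5 RPKM in siEwsr1. All siEwsr1 libraries were below both controls, opposite to the lean of Snhg1, but the log2 difference of -0.30 ± 0.09 (SE) had an adjusted p of 0.091. Zbtb37, 427 bases from Gas5 on the opposite strand, differed by 0.02 on the log2 scale (adjusted p = 0.915). Znfx1, which starts 81 bases from Zfas1 on the opposite strand and overlaps 82 exonic bases, differed by 0.03 (adjusted p = 0.92). Mcmdc2, overlapping 127 exonic bases of Snhg6, had at most 6 reads per library.

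Other host genes gave no calls, and neither did the proteins of snoRNA particles and the factors that assemble them. Of all 14922 tested genes, limma called 2.46% higher and 2.65% lower, and 22.2% had an unadjusted p under 0.05. Of 13 other noncoding snoRNA hosts, 8 were tested and 0 were called by limma, with 1 at an unadjusted p under 0.05 (Snhg20, named after its value was seen). Their median log2 difference was -0.08, below 0 where that of the 9 hosts was 0.12. Of 39 protein-coding hosts, mostly ribosomal protein and translation factor genes, limma called 0, with 8 at an unadjusted p under 0.05 and a median of -0.03. Annotated long noncoding RNA genes other than the 10 hosts had a median of -0.12 over 1152 tested genes, with 8 higher and 28 lower. Proteins of the snoRNA particles, such as fibrillarin (Fbl) and dyskerin (Dkc1), were listed together with assembly factors such as Nufip1 and Shq1. Of these, 12 of 16 had differences above 0, with a median of 0.15. The limma test called 0, with 7 at an unadjusted p under 0.05. Nop56, Nop58 and Dkc1 are also in the list of protein-coding hosts.

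Among 25 factors of nonsense-mediated decay, 2 rose and 1 fell, where limma called 2.46% of all tested genes higher and 2.65% lower. Dcp2, the decapping enzyme, rose by 0.44 ± 0.09 (SE) on the log2 scale (adjusted p = 0.026), and Smg6, the endonuclease that cuts the target near its stop codon, rose by 0.41 ± 0.10 (0.0388). Smg5, an adaptor that binds phosphorylated UPF1, fell by 0.50 ± 0.10 (0.0188). The other 22, Upf1, Upf2 and Smg1 among them, were not called, and the median of the list was 0.04. Of 15 messages known to be cleared by that decay, 0 rose and 5 fell: Ddit3 (-0.86, adjusted p = 0.0116), Slc7a11 (-0.78, 0.00406), Atf3 (-0.68, 0.0179), Atf4 (-0.52, 0.0111) and Smg5 again. Of these, Atf4, Atf3 and Ddit3 encode transcription factors of the integrated stress response and Slc7a11 encodes a cystine transporter. The list's median was 0.04. Levels here are totals over all transcripts of a gene, and for some listed genes, such as Srsf2 and Tra2b, only certain transcripts are targets. These counts therefore do not measure the activity of the decay.

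Among 13 growth regulators linked to TOP messages, 1 rose and 1 fell, against 2.46% called higher and 2.65% lower over all tested genes. Mycn, the neuroblastoma oncogene, rose by 0.47 ± 0.11 (SE) on the log2 scale (adjusted p = 0.0375). Eif4ebp1, a repressor of cap-dependent translation that mTOR inactivates, fell by 0.78 ± 0.10 (0.00307). Larp1, Mtor and Rptor, the TOP-binding repressor and parts of the mTOR complex, were not called. The lists were compared by counts and medians alone, and a difference between them and the hosts was not tested.

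**Figure D5:**
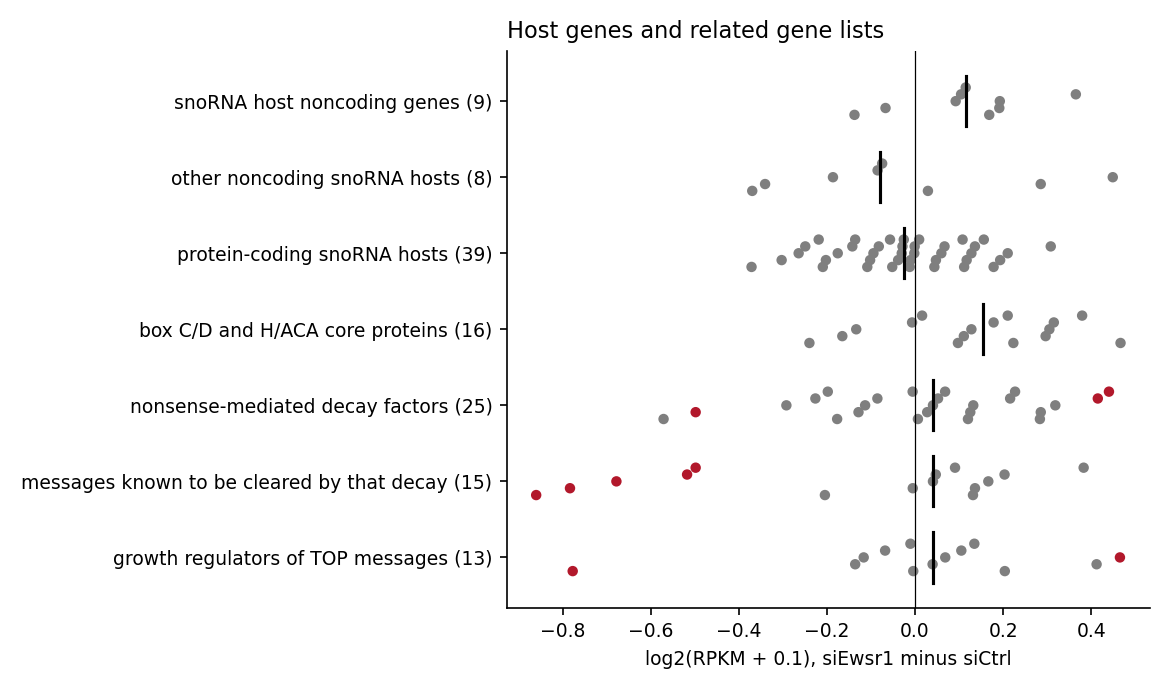
log2(RPKM + 0.1) difference, siEwsr1 minus siCtrl, of each tested gene in the host genes and 6 related lists, with the number of genes tested in parentheses; black bars are medians and red points have an adjusted p under 0.05. Medians run from -0.08 (other noncoding hosts) to 0.15 (core proteins, a list that also holds assembly factors), and no point of either noncoding host list is red.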

How the data were processed

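The authors deposited a file per library. Per the submitters' processing notes, STAR 2.5.2b, featureCounts 1.5.1 and edgeR were used on GRCm38. Their settings for strand and multi-mapped reads were not given in the sources used here. Deposited values behave as RPKM, but values of 1 or more lost their decimal point, so their unit was recorded as other. Decimals were restored by requiring whole reads (exonic lengths from GENCODE M21), without group labels; 93 genes with odds of the reading under 20 were left out. In simulated data, genes changed 4-fold were mostly left out, and genes changed 10-fold were kept but misread. The shares called over all genes do not account for this. Gas5, Snhg12, Snhg5 and Epb41l4aos had libraries read above the lowest whole position; lower readings would put libraries of 1 group about 10-fold apart. Genes with at least 10 reads at median depth in 2 libraries were tested with limma 3.58.1 (R 4.3.3) on log2(RPKM + 0.1), TMM scaling, robust moderation and a variance trend on mean reads, by group, with Benjamini-Hochberg adjustment over 14922 genes. Fold changes on this scale understate low genes. All host genes, Ewsr1, hosted snoRNAs above the filter, neighbours and called list genes are named. Members and lists were chosen with earlier results of these data known. The fit and restoration were tested on simulated data, where the fit missed most genes changed 1.2-fold.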

Additional observations from a re-analysis of the deposited data

How the results depend on the processing

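Across the 14 alternatives that kept all 9 hosts, none of them changed sign, 0 were called lower, and their median log2 difference ranged from 0.09 to 0.15. Leaving out genes read above the lowest whole position kept 5 hosts, without Gas5, Snhg5, Snhg12 and Epb41l4aos; these 5 kept their signs, 0 were called, and their median was 0.17. The count called higher moved only with the replicate number as a block and on leaving out libraries (0 to 4; 4 without siEwsr1 replicate 3). With the replicate block, in which siEwsr1 replicate 3 has no partner and so does not enter the contrast, it was 3 of 9, against 11.1% of all genes: Snhg3 (0.44, adjusted p = 0.0017), Snhg1 (0.28, 0.0147) and Gas5 (0.28, 0.0182). Whether equal numbers mark a pairing cannot be told from these libraries. Deviations of same-numbered libraries correlated at 0.03 and -0.12, but only 2 numbers are shared and the deviations of the 2 controls mirror each other. Calls over all genes, higher and lower, were 367 and 396, and differed by more than 1.5 times with a pseudocount of 1 (167 and 200), no filter (20 and 40), the replicate block (1649 and 1639), the trend on mean RPKM, chosen after seeing the data (114 and 137), and on leaving out single libraries (3 to 1893 higher, 3 to 1912 lower); the cause was not tested. Where a group is left with 1 siCtrl library, that library is assumed to vary like the other group. The edgeR and DESeq2 alternatives were not run, since the deposited values are not counts. The tested hosts had 321 reads or more per library. For Snhg8 (434 to 588 reads) and Epb41l4aos (321 to 520 reads), counting error is not small beside their log2 differences, -0.07 and -0.14.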
